A study of Drosophila melanogaster and Drosophila simulans and Drosophila yakuba with 27 samples.

Results

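The genes hth (homothorax, FBgn0001235), tsh (teashirt, FBgn0003866) and tio (tiptop, FBgn0028979) were followed across 3 larval tissues of 9 Drosophila lines. They were taken by symbol from the deposited table of normalised expression, where they are 3 of 15439 genes. Of the genes in that table, 9832 had a value in each of the 27 libraries, and 7677 of these passed the filter on low values. All 3 members were among the 7677 genes. RNA was sequenced from eye-antennal discs, wing discs and brains dissected from wandering larvae of the third instar reared at 25 °C, with 1 library per tissue and line. D. melanogaster was represented by RAL-208 (genotype DGRP-208) and by Canton S. The other species were D. simulans carrying w[501], wild-type D. yakuba, D. ananassae with the inversion In(3R)A, and wild-type D. virilis, D. mojavensis, D. willistoni and D. pseudoobscura. Each tissue was therefore measured in 9 lines of 8 species. No line had a repeat library of a tissue. The p-values for tissues and lineages below therefore measure the spread between lines. Those for the D. melanogaster strains measure the spread of the strain difference over the 3 tissues. Tests over lines treat them as independent, although they share ancestry.

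Homothorax is a homeodomain transcription factor of the TALE class. It binds its partner Extradenticle and is needed to hold it in the nucleus, and the pair also acts as a cofactor of Hox proteins. Teashirt and Tiptop are zinc finger transcription factors encoded by paralogous genes. In the eye disc, Homothorax and Teashirt mark the undifferentiated progenitors ahead of the morphogenetic furrow, where they act together with Eyeless and the growth regulator Yorkie. Homothorax is also needed for antennal identity and marks the proximal parts of the appendages. In the wing disc, homothorax and teashirt are active in the future hinge and notum and are silent in most of the wing pouch. In the larval optic lobe, Homothorax is found in young medulla neuroblasts and in some of their neurons. Current FlyBase annotation places hth on chromosome arm 3R with 5 transcripts. It places tsh, with 1 transcript, and tio, with 2, on arm 2L with 7 coding genes between them.

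The libraries held 3642547 to 20473119 counted reads, with a median of 10938286. The deposited signal is a read count scaled by a constant of the gene and a factor of the library, and it behaved as a level per length. In RAL-208 that constant followed current exonic length across 8516 genes (Spearman's rho 0.981), and 92.4% of genes were within 1.25-fold of the common ratio. Relative to the median gene, the constant per base was 1.00 for tsh, 0.658 for hth and 0.606 for tio. Sums of the eye disc, wing disc and neuronal marker lists were each highest in the labelled tissue, without overlap. Eye disc markers, a list that holds ey and toy, summed to a signal of 348 to 570 in eye-antennal libraries, 3.78 to 42.0 in wing libraries and 126 to 247 in brains. Wing disc markers summed to 5.74 to 45.6, 247 to 458 and 56.6 to 98.9 in the same order. Neuronal markers summed to 372 to 834 in brains, 63.0 to 226 in eye-antennal libraries and 18.1 to 56.7 in wing libraries. These neuronal sums rest on 6 to 8 of 8 genes, depending on the line, as some lines lacked a value. Ring gland markers summed to 96.3 to 574 in eye-antennal libraries, 5.23 to 167 in wing libraries and 112 to 490 in brains. The value of 167 was that of D. willistoni, and the other 8 wing libraries reached at most 19.9. Fat body markers, with a value for 3 to 5 of 5 genes per line, summed to 39.5 to 10582, with overlap of all 3 tissues. Among the markers of these lists, gl, Syt1, VGlut and Gad1 were at 0 in the D. mojavensis wing library, Lsp2 in the D. mojavensis brain, dib in the RAL-208 wing library and Akh in that of D. yakuba.

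Expression of hth was high in both discs and lower in the brain, whereas tsh and tio were highest in the wing disc. The eye-antennal discs and the brain did not differ detectably in tsh or tio. On the deposited signal scale, hth exceeded tsh and tsh exceeded tio in each of the 27 libraries. The order of hth and tsh depended on the scale. Per base of current exonic length, which could be set only for the 6 D. melanogaster libraries, hth reads exceeded tsh reads in 4 and fell below them in both wing libraries. In reads, which are not per length, hth was below tsh in 5 of 27 libraries, the wing libraries and brains of D. simulans and D. yakuba and the wing library of D. ananassae. On both of these scales tsh exceeded tio in every library.

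**Figure D1:**
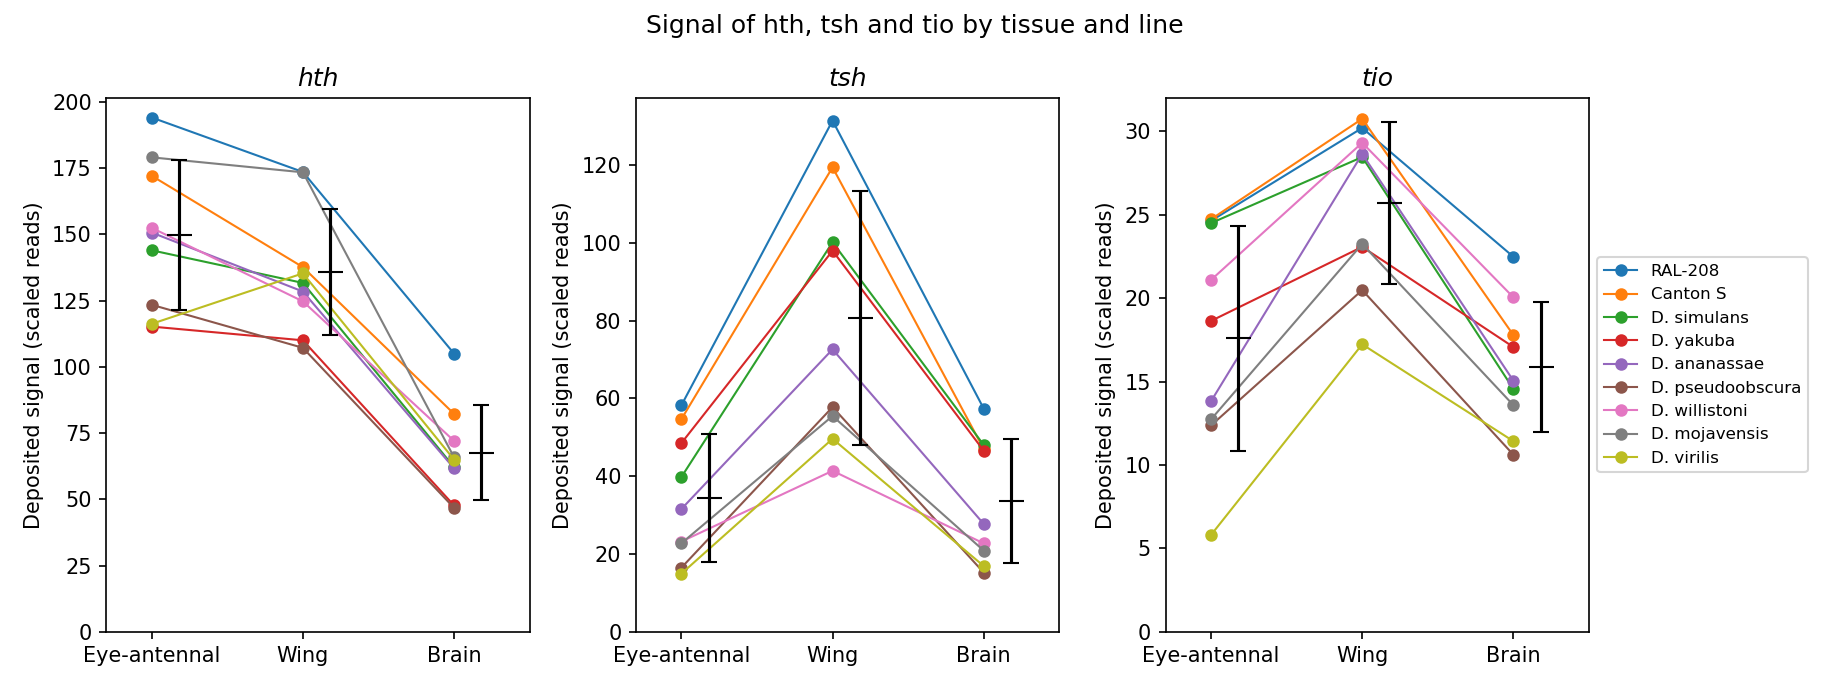
Deposited signal (scaled reads, linear axis from 0) of hth, tsh and tio in eye-antennal discs, wing discs and brains. Each coloured point is 1 library, lines join the 3 tissues of a line, and black bars are the mean and SD over 9 lines. The hth lines drop to the brain, where the mean is 67.6, and the tsh and tio lines peak in the wing disc, at means of 80.6 and 25.7.

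In eye-antennal discs the hth signal ran from 115 in D. yakuba through a median of 151 to 194 in RAL-208. In wing discs it ran from 107 in D. pseudoobscura through 132 to 174 in RAL-208. In brains it ran from 46.8 in D. pseudoobscura through 65.0 to 105 in RAL-208. Both discs thus stood above every brain library, and the discs overlapped each other over most of their range. Over all tested genes, the signals of eye-antennal discs and brains did not overlap for 10.1%, and those of wing discs and brains for 14.4%. The mean signal was 149.7 ± 28.2 in eye-antennal discs, 136 ± 23.8 in wing discs and 67.6 ± 17.8 in brains (SD, n = 9).

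The hth signal was 2.22-fold higher in eye-antennal discs than in brains, a difference of 1.15 in log2(signal + 1) (SE 0.07, limma adjusted p = 6.06e-11). It was 2.02-fold higher in wing discs than in brains (1.02, SE 0.07, limma adjusted p = 6.72e-11). Both differences had this direction in 9 of 9 lines. Among all tested genes, limma called 25.8% higher in eye-antennal discs than in brains and 28.2% higher in wing discs than in brains. In either direction the shares were 52.6% and 60.2%. Within lines, the ratio of eye-antennal disc to brain ran from 1.79 in D. virilis to 2.72 in D. mojavensis. The ratio of wing disc to brain ran from 1.65 in RAL-208 to 2.63 in D. mojavensis. Both counting intervals lay above 1 in 9 of 9 lines. In tissue libraries of this kind, fewer cells of a type and less RNA per cell cannot be told apart. Of the neuronal markers, 6 of 6 tested were lower in each disc than in the brain, with median differences of -2.60 for eye-antennal discs and -4.75 for wing discs. Their part in the hth values was not tested.

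Between the discs, hth was higher in eye-antennal discs in 8 of 9 lines, by a ratio of 1.03 in D. mojavensis to 1.25 in Canton S. D. virilis was the exception, with a ratio of 0.859 (95% counting interval 0.804 to 0.918). The counting interval lay above 1 in 6 lines, below 1 in 1 line and held 1 in D. yakuba and D. mojavensis. The mean difference was 0.14 in log2(signal + 1) (SE 0.07, 95% interval -0.0048 to 0.28), which limma did not call (adjusted p = 0.169). Over lines alone, an exact two-sided sign-flip permutation test gave p = 0.0430. Without D. virilis, limma called the difference, at 0.18 (adjusted p = 0.0490). In the plot of ratios by line, hth lies near 1 in the comparison of discs and well above 1 against the brain.

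**Figure D2:**
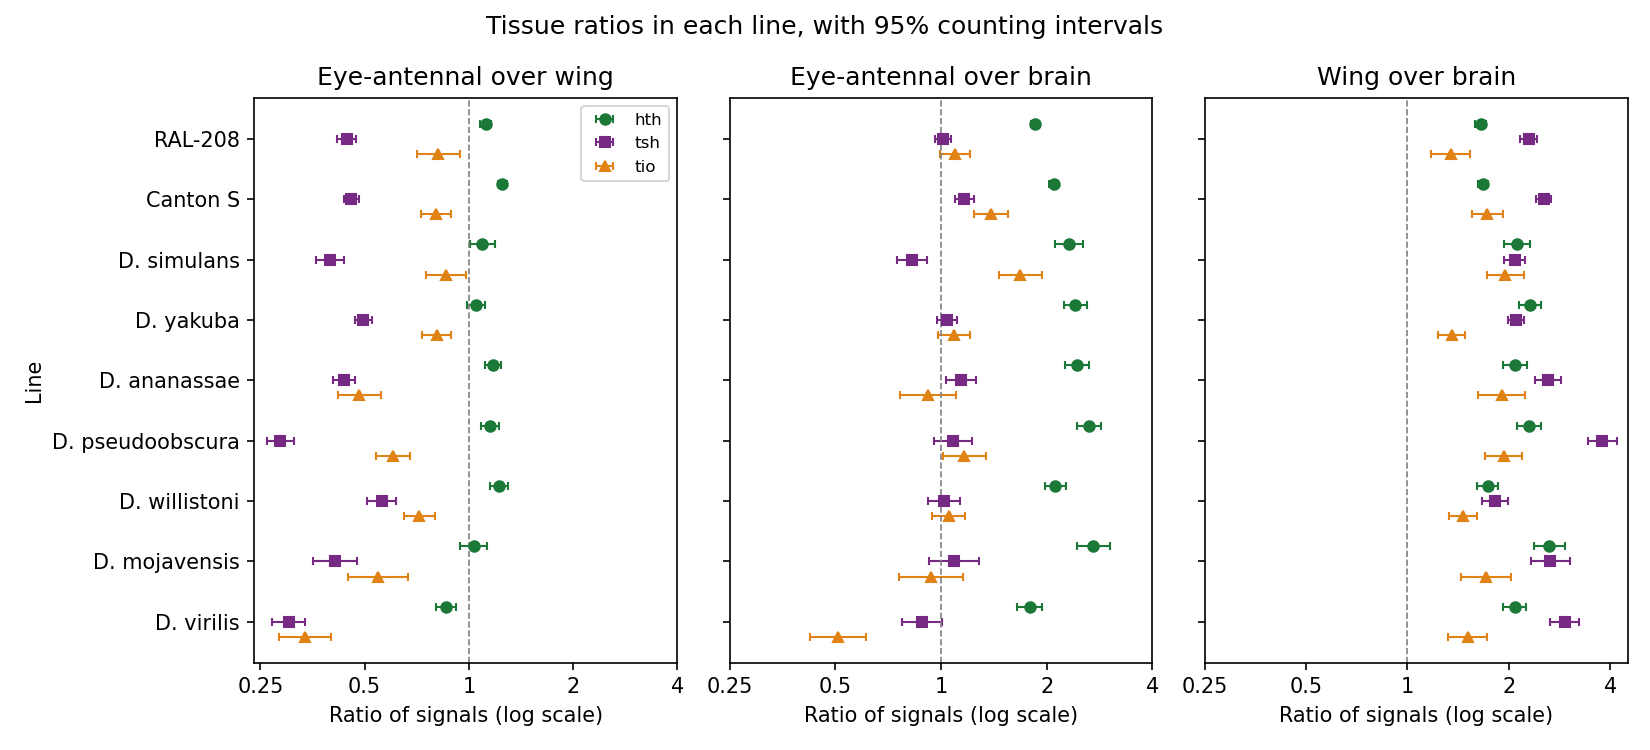
Ratio of the signals of 2 tissues in each line (log axis, 1 marks equal signals) for hth (circles), tsh (squares) and tio (triangles). Bars are 95% counting intervals from the recovered reads. For tsh and tio every ratio of eye-antennal to wing disc lies below 1, from 0.286 to 0.561 and from 0.337 to 0.861.

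In eye-antennal discs the tsh signal ran from 15.0 in D. virilis through a median of 31.6 to 58.2 in RAL-208. In wing discs it ran from 41.4 in D. willistoni through 72.6 to 131 in RAL-208. In brains it ran from 15.2 in D. pseudoobscura through 27.7 to 57.4 in RAL-208. The tissues overlapped across lines, while within every line the wing disc was the highest of the 3 tissues. Over all tested genes, the 2 discs did not overlap for 2.38%. The mean signal was 34.5 ± 16.5 in eye-antennal discs, 80.6 ± 32.6 in wing discs and 33.6 ± 16.0 in brains (SD, n = 9).

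The tsh signal was 2.37-fold lower in eye-antennal discs than in wing discs, a change of -1.25 in log2(signal + 1) (SE 0.09, limma adjusted p = 1.83e-09). It was 2.43-fold higher in wing discs than in brains (1.28, SE 0.09, limma adjusted p = 8.22e-11). Each direction held in 9 of 9 lines, with a counting interval that left out 1 in all of them. Limma called 21.3% of all tested genes between the discs, 6.24% as lower in eye-antennal discs. The ratio of wing disc to brain was smallest in D. willistoni, at 1.82, and largest in D. pseudoobscura, at 3.79. Eye-antennal discs and brains differed by 0.03 (SE 0.09, 95% interval -0.15 to 0.21, limma adjusted p = 0.773). In single lines that ratio ran from 0.828 in D. simulans to 1.16 in Canton S, and the counting interval held 1 in 6 of 9 lines.

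In eye-antennal discs the tio signal ran from 5.81 in D. virilis through a median of 18.6 to 24.7 in Canton S. In wing discs it ran from 17.2 in D. virilis through 28.5 to 30.7 in Canton S. In brains it ran from 10.6 in D. pseudoobscura through 15.1 to 22.5 in RAL-208. The 3 tissues overlapped, and the wing disc was again highest within every line. The mean signal was 17.6 ± 6.76 in eye-antennal discs, 25.7 ± 4.83 in wing discs and 15.8 ± 3.89 in brains (SD, n = 9). The lowest value, in D. virilis eye-antennal discs, rested on 175 reads.

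The tio signal was 1.52-fold lower in eye-antennal than in wing discs, a change of -0.61 (SE 0.12, limma adjusted p = 0.000894). It was 1.60-fold higher in wing discs than in brains (0.68, SE 0.12, limma adjusted p = 5.98e-05). Each direction held in 9 of 9 lines. The ratio of eye-antennal to wing disc was 0.337 in D. virilis and 0.861 in D. simulans, the ends of its range. Without the block for line, the disc difference was no longer called (adjusted p = 0.0800). Eye-antennal discs and brains differed by 0.07 (SE 0.12, 95% interval -0.18 to 0.32, limma adjusted p = 0.658). That comparison went both ways among lines. The ratio was 1.68 in D. simulans (95% counting interval 1.46 to 1.94) and 1.39 in Canton S, against 0.508 in D. virilis (0.422 to 0.610). Without D. simulans the mean difference was -0.01 (adjusted p = 0.940). Current annotation places exons of lncRNA:CR33987 over those of tio on the same strand. It had 81 to 238 reads in the 6 D. melanogaster libraries, and how the counting split reads between these genes was not given in the sources used here. Exons of asRNA:CR44018 lie over those of hth on the opposite strand. Whether counting used strand is not given either.

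The tsh and tio signals both peaked in the wing disc, and 2 other cell types of the wing disc were checked beside them, the adult muscle precursors, which are myoblasts attached to the disc, and the trachea. Of the 5 marker genes of adult muscle precursors, 4 were called lower in eye-antennal than in wing discs, among them twi (-1.82) and Him (-1.89). In wing discs against brains, 3 of the 5 were called higher and 2 lower, with a median of 0.68. Over all tested genes, 6.24% were called lower between the discs, and 28.2% higher and 32.0% lower in wing discs than in brains. The 5 marker genes summed to a signal of 17.2 to 66.4 in eye-antennal discs, 42.0 to 82.9 in wing discs and 26.6 to 78.4 in brains. Him was at 0 in eye-antennal discs of D. pseudoobscura and D. virilis. Tracheal markers summed to 118 to 285 in wing discs, above the 3.30 to 50.5 in eye-antennal discs and the 16.9 to 66.4 in brains without overlap. Of these 3 markers, trh and vvl were tested, and both were lower in eye-antennal than in wing discs (-2.14 and -3.46) and higher in wing discs than in brains (1.14 and 2.37). The gene vvl is also in the list of wing hinge and notum genes. D. ananassae and D. pseudoobscura had a value for 2 of the 3 tracheal markers. No tracheal marker with a value was at 0. The part of either cell type in the tsh and tio values was not tested. In the brain, the posterior Hox genes abd-A and Abd-B, which mark the abdominal nerve cord, had mean signals of 8.45 and 2.13. In wing discs they had 0.455 and 0.133. Whether nerve cord was present in these preparations was not tested.

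The members differed from each other in how strongly they separated the tissues. Within lines, the eye-antennal minus wing difference of hth exceeded that of tsh by 1.38 ± 0.257 on the log2 scale (SD, n = 9 lines). It exceeded that of tio by 0.743 ± 0.335. The same difference was more negative for tsh than for tio, by -0.640 ± 0.350. Each of these held in 9 of 9 lines, with an exact two-sided sign-flip permutation p of 0.00391, the smallest that 9 lines allow, and 0.00586 after adjustment over 9 tests. In eye-antennal discs minus brains, hth exceeded tsh by 1.12 ± 0.210 and tio by 1.08 ± 0.414 in 9 of 9 lines (exact permutation, adjusted p = 0.00586 for both). There, tsh and tio differed by -0.036 ± 0.454, with tsh above tio in 3 lines and below in 6 (exact permutation p = 0.789). In wing discs minus brains, tsh exceeded tio by 0.604 ± 0.277 in 9 of 9 lines (exact permutation, adjusted p = 0.00586). There hth exceeded tio by 0.341 ± 0.254 in 8 of 9 lines (exact permutation, adjusted p = 0.0100). The difference between hth and tsh, -0.264 ± 0.299, had an exact permutation p of 0.0469 and an adjusted p of 0.0527.

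The ratio of tsh to tio therefore changed with tissue. It was 3.11 ± 0.966 in wing discs (SD, n = 9), 1.99 ± 0.546 in eye-antennal discs and 2.07 ± 0.747 in brains. In wing discs it ran from 1.41 in D. willistoni to 4.35 in RAL-208. In every line the wing disc had the highest of the 3 ratios. D. willistoni had the lowest ratio in each tissue, at 1.10 in eye-antennal discs and 1.13 in brains.

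**Figure D3:**
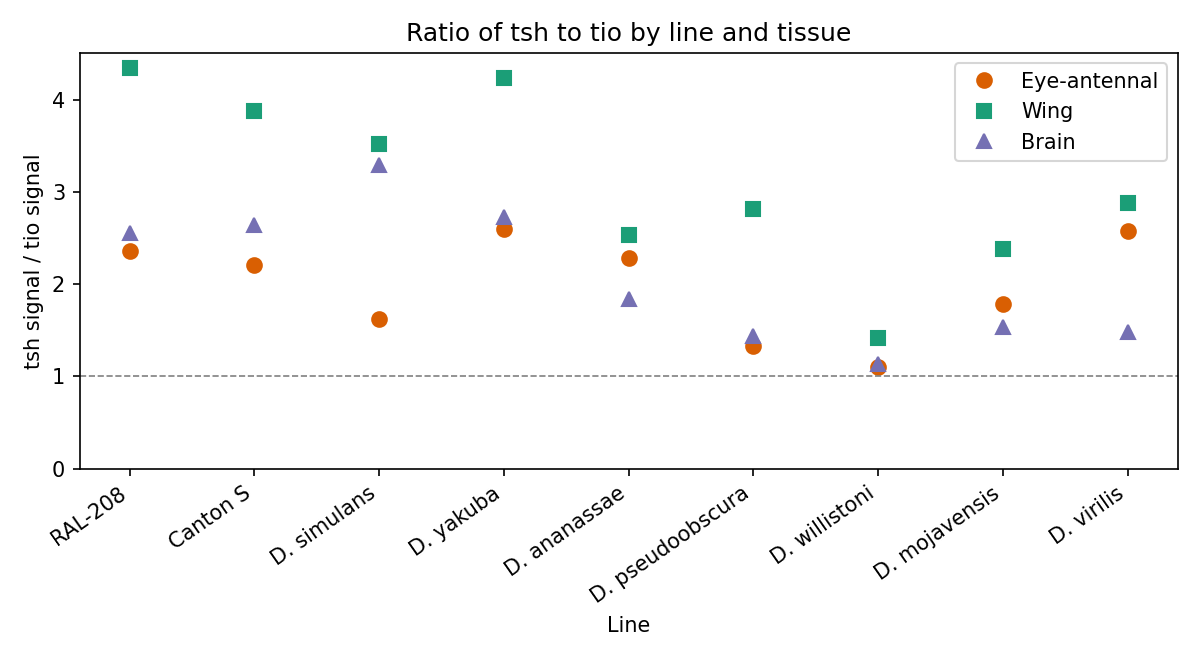
Ratio of the tsh signal to the tio signal (linear axis from 0, dashed line at 1) in each line for eye-antennal discs (circles), wing discs (squares) and brains (triangles). Each point is 1 library. All 27 points lie above 1, and the wing disc point is the highest in every line.

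The 4 lines of the melanogaster subgroup (D. yakuba, D. simulans and both D. melanogaster strains) were set beside the other 5 lines. In all 3 tissues, tsh stood higher in each of these 4 lines than in any other line. In eye-antennal discs the signal was 39.8 to 58.2 in the subgroup and 15.0 to 31.6 elsewhere. In wing discs it was 98.0 to 131 against 41.4 to 72.6, and in brains 46.6 to 57.4 against 15.2 to 27.7. In CPM (reads scaled to the total of a library) the groups did not overlap either, with 300.2 to 402 against 118 to 193 in wing discs. Of all tested genes, 1.06% stood higher in the subgroup in all 3 tissues. The share was 3.66% in eye-antennal discs, 3.40% in wing discs and 3.44% in brains. The lines share ancestry, so these levels are given without a test. The signals of hth and tio overlapped between the lineages in every tissue.

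The ratio of tsh to tio was 3.52 to 4.35 in wing discs of the subgroup and 1.41 to 2.88 in those of the other lines. In brains it was 2.55 to 3.30 against 1.13 to 1.84, and in eye-antennal discs 1.62 to 2.60 against 1.10 to 2.58. In reads, which do not carry the constants per gene, the lineages overlapped in every tissue. In wing discs this ratio of reads was 3.29 to 5.95 against 1.37 to 4.11. In wing discs and brains the overlap came from D. ananassae alone, at 4.11 and 2.99. The remaining lines outside the subgroup reached 2.75 in wing discs (D. virilis) and 1.43 in brains (D. mojavensis). The lowest subgroup value in brains was 2.54. In eye-antennal discs D. virilis and D. mojavensis, at 2.46 and 1.66, also lay above the lowest subgroup value of 1.52.

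Levels of hth across species depended on the scale. In CPM, hth had 438 to 982 in the 6 D. melanogaster libraries and 82.0 to 264 in the other 21. The deposited constant for hth was 0.259 to 0.287 times that of RAL-208 in the 7 other species. It was 0.791 to 0.917 for tsh, and for tio 1.23 to 1.34 except in D. ananassae, at 0.667. Tissue differences within a line do not carry these constants.

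Tissue differences were then compared between the lineages by limma's interaction of tissue and subgroup. This fit treats the lines as independent, although they share ancestry. The largest of the 9 member values was that of tio between the discs. The eye-antennal minus wing difference of tio was -0.30 to -0.21 in the 4 subgroup lines and -1.42 to -0.46 in the other 5, without overlap. Over all tested genes, 2.53% had no overlap there in either direction. The interaction was 0.60 (SE 0.20, 95% interval 0.18 to 1.03) and was not called after adjustment over 7677 genes (limma adjusted p = 0.709). For tio in eye-antennal discs against brains it was 0.51 (SE 0.20, limma adjusted p = 0.370). No member was called in any of the 3 interactions. Limma called 0 genes (0%) between the discs, with 396 at an unadjusted p under 0.05, 0.0651% between eye-antennal discs and brains and 0.534% between wing discs and brains.

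The 2 D. melanogaster strains were compared by read counts in the 3 tissues with edgeR. In eye-antennal discs, wing discs and brains in turn, hth had 982, 875 and 511 CPM in RAL-208 and 880, 714 and 438 in Canton S. The RAL-208 level was the higher in each tissue, by 0.25 in log2 (SE 0.08, edgeR adjusted p = 0.263), which was not called. DESeq2 gave 0.27 and called it (adjusted p = 0.0386). The strain difference was 0.14 (SE 0.07, edgeR adjusted p = 0.391) for tsh and 0.07 (SE 0.10, edgeR adjusted p = 0.761) for tio. EdgeR called 28 of 9476 genes (0.295%), and DESeq2 called 504.

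Line and tissue took different shares of the variation of the 3 genes over the 27 libraries. For hth, tissue held 77.4% of the sum of squares of log2(signal + 1) and line 19.0%. On log2(CPM + 1) this order turned, with 21.9% for tissue and 77.2% for line. On the signal scale, for tsh, line held 50.3% and tissue 47.1%. For tio, line held 50.9%, tissue 34.4% and the remainder 14.7%. In CPM, line held 54.7% for tsh and 60.0% for tio, and tissue 42.6% and 26.1%. On the signal scale the medians over the tested genes were 66.7% for line, 12.6% for tissue and 10.7% for the remainder. The SD of log2(signal + 1) over the 9 lines was ranked among tested genes in eye-antennal discs, wing discs and brains in turn. For hth it stood at percentiles 9.93, 10.6 and 31.4. For tsh it stood at 66.3, 61.7 and 73.6, and for tio at 60.0, 17.1 and 26.8. The SD of hth was larger in CPM. In wing discs it was 0.243 in log2(signal + 1) and 0.897 in log2(CPM + 1).

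Genes with the most similar profile were ranked by Pearson's r over the 27 libraries after each line's mean was removed. The points share tissue, and the libraries of a line share genotype and rearing, so r is given as a description. For hth these were Dl, the Notch ligand Delta (0.983), numb, which encodes a Notch inhibitor (0.981), CG3921 (0.978), the cadherin gene Cad99C (0.978) and ed, a cell adhesion gene (0.977). For tsh they were Lsd-2, of lipid droplets (0.970), nub (0.964) and vg (0.955), both wing transcription factor genes, the axon guidance receptor gene lea (0.949) and twi (0.947). For tio they were CG7466 (0.913), the corepressor gene CtBP (0.904), the zinc finger genes rn (0.887) and salr (0.882), and Pi3K21B (0.873). Between members, r was 0.856 for tsh with tio, 0.423 for hth with tsh and 0.443 for hth with tio.

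The partners of Homothorax and Teashirt showed no common direction. Of 14 partner genes tested, limma called 3 higher and 4 lower in eye-antennal than in wing discs, with a median of 0.05, beside 0.04 over all tested genes. Limma called 15.0% of all tested genes higher there. The signal of exd, the Extradenticle gene, was 255 in eye-antennal discs, 266 in wing discs and 287 in brains, and it was called in none of the comparisons. The largest differences were those of Hox genes. Dfd (3.43) and lab (2.61), both head Hox genes, were higher in eye-antennal discs, and Antp (-2.52) and Ubx (-1.94), both thoracic Hox genes, were lower. In wing libraries, Dfd was at 0 in RAL-208 and D. mojavensis, and lab in D. mojavensis. Ubx was at 0 in the D. yakuba eye-antennal library. The gene sd, whose product Scalloped binds DNA for Yorkie, was also lower there (-0.72, limma adjusted p = 0.00963). Against brains, 3 partners were called higher and 5 lower in eye-antennal discs, and 4 higher and 6 lower in wing discs. Over all tested genes, 26.8% were called lower in eye-antennal discs and 32.0% lower in wing discs.

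Of 9 retinal determination genes, 6 were called higher in eye-antennal than in wing discs and 0 lower, with a median of 1.96. The largest were toy (4.96) and ey (4.49), both Pax6 genes, and eya (3.22). Over all tested genes, limma called 15.0% higher and 6.24% lower between the discs. Against brains, 7 of the 9 retinal genes were called higher in eye-antennal discs, beside 25.8% of all tested genes. The largest were eyg (2.95) and toe (2.81), while toy was not called (0.24). Of 10 antennal genes tested, 6 were called higher and 2 lower between the discs, with a median of 1.66. The largest was danr (4.56), which was at 0 in the D. mojavensis wing library, and Dll, the distal selector, was not called (-0.17).

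Genes of the wing hinge and notum were set beside the members. Of 11 tested of 15 listed, 0 were called higher and 9 lower in eye-antennal discs than in wing discs, with a median of -1.49. Among them were nub (-4.13), vvl (-3.46) and the Iroquois gene ara (-1.84). Over all tested genes, 15.0% were called higher and 6.24% lower between the discs. In wing discs against brains, these shares were 28.2% and 32.0%. Of the hinge and notum genes, 10 of 11 were called higher in wing discs than in brains and 1 lower, with a median of 2.46. Doc1 (3.47) and Doc3 (3.25), which encode T-box factors, were among the largest. The tsh differences of -1.25 and 1.28 and the tio differences of -0.61 and 0.68 had the signs of these medians and were smaller in size. For hth, the wing minus brain difference of 1.02 had the sign of its median. The hth difference of 0.14 between the discs, which was not called, had the opposite sign. Of 12 optic lobe genes tested of 14 listed, 9 were called higher in eye-antennal than in wing discs and 1 lower, with a median of 2.02. In wing discs against brains, 2 were called higher and 10 lower, with a median of -3.36, led by erm (-4.98), hbn (-4.55) and tll (-4.51). The wing minus brain difference of hth, 1.02, was opposite in sign to that median. In the RAL-208 wing library erm, hbn and tll were at 0, as was hbn in that of D. mojavensis. The lists share genes, such as ey, dac, vvl and eyg, and nub is also in the list of wing disc markers.

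**Figure D4:**
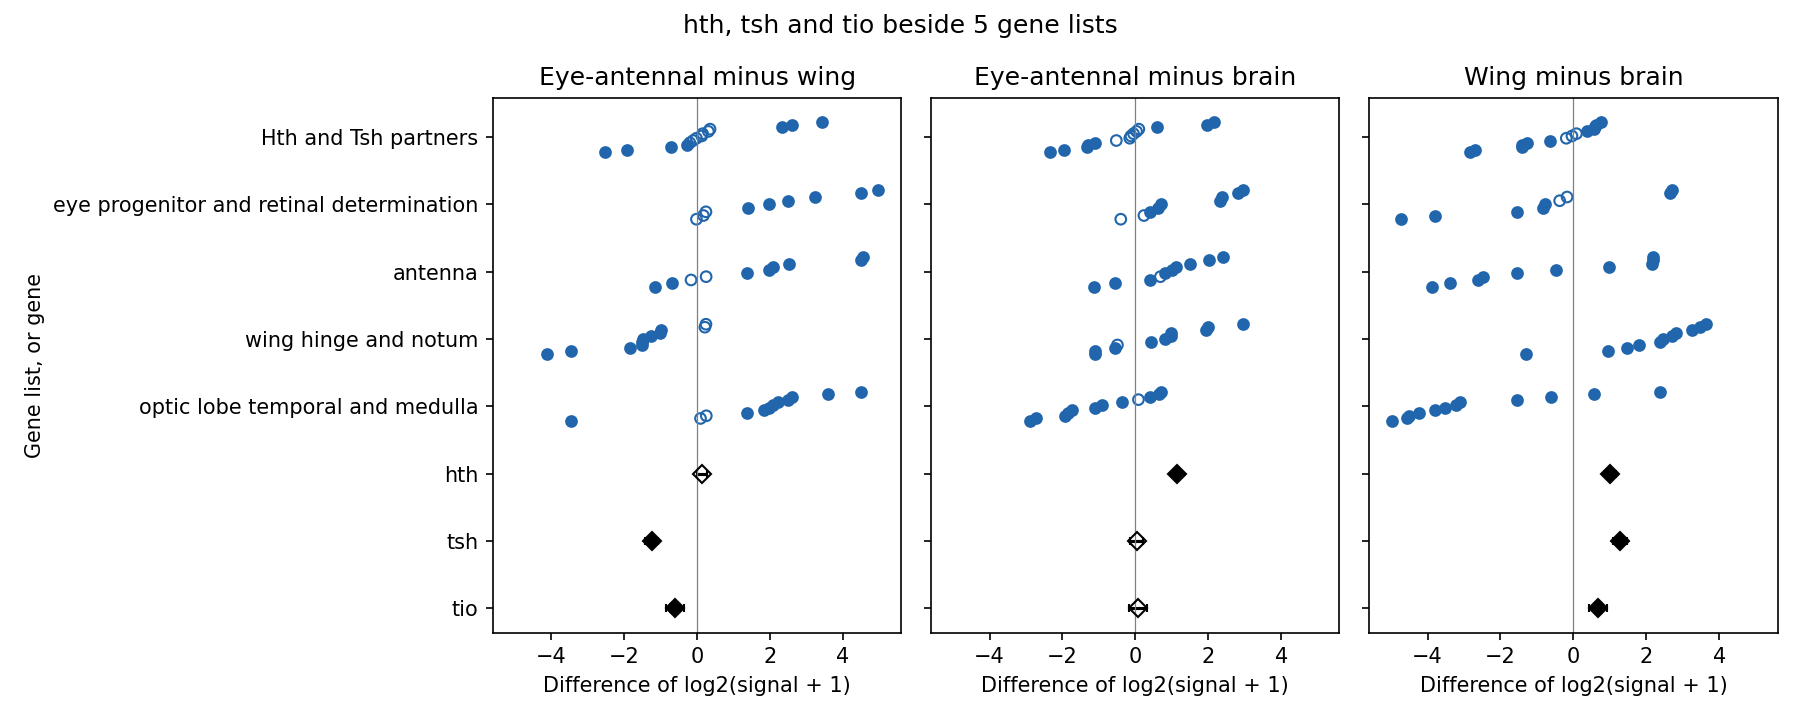
Tissue differences in log2(signal + 1) for the tested genes of 5 lists (circles) and for hth, tsh and tio (diamonds, with 95% intervals from limma). Filled symbols were called at an adjusted p under 0.05. Between the discs, 9 of 11 hinge and notum genes lie below 0 and were called. Beside them, tsh lies at -1.25, tio at -0.61 and hth at 0.14. Over all tested genes, 6.24% were called lower there.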

How the data were processed

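Per the submitters' processing notes, reads were aligned with TopHat2 2.0 and counted with HTSeq. The builds were not given in the sources used here, so no coordinates are printed. The authors deposited a table of read counts per library and 1 table of normalised signal for all libraries. The counts of all 3 genes were recovered in every line by matching ratios of the signal to the count tables (tolerance 1e-07). Of genes with 3 values above 0, 88.4% to 96.0% were recovered per line, and 5540 in all lines. Counting intervals are exact binomial (95%) and cover counting error only. The table columns that name D. melanogaster alone were taken as RAL-208, because the others name Canton S and the signal there was proportional to counts of RAL-208.

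Genes with a value in all 27 libraries and a signal of at least 1 in 9 or more were fitted with limma 3.58.1 (R 4.3.3, trend) on log2(signal + 1). Line was a block, with 16 residual degrees of freedom for tissues and 14 for the interaction. The pseudocount of 1 understates the change of low genes. Libraries of a line deviated together from their tissue means (r 0.625 to 0.863 over 27 pairs). Strains were compared with edgeR 4.0.16 on counts of genes that reached a CPM of 1 in 2 or more libraries, with tissue as a block and 2 residual degrees of freedom. DESeq2 1.42.0 was an alternative. P-values were adjusted by Benjamini-Hochberg over all genes, and genes were called at 0.05. The fits were tested on simulated data. Genes named beside the members are the 5 most similar in profile and at most 3 called per list, direction and comparison, and single genes beyond this (exd, sd, Dll, and toy where not called) were chosen after their values were seen. The members and lists were chosen with earlier results of these data known.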

Additional observations from a re-analysis of the deposited data

How the results depend on the processing

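Of the results on single genes, 183 tissue, 124 lineage, 16 strain and 97 pair recomputations kept the direction and the side of the threshold. The exceptions follow, and their cause was not tested unless stated. Without the replicate block for line, tio between the discs was no longer called (-0.61, limma adjusted p = 0.0800), no other call on a member changed, and 709, 2122 and 2665 genes were called in place of 1633 (eye-antennal minus wing), 4039 (eye-antennal minus brain) and 4622 (wing minus brain). For hth between the discs, leaving out each line in turn gave 0.11 to 0.18 and a call only without D. virilis, and the exact permutation over lines gave 0.14 with p = 0.0430. For tsh between eye-antennal discs and brains, recovered reads gave -0.012 with edgeR and -0.024 with DESeq2, and for tio the range over left-out lines was -0.012 to 0.19. Interactions over left-out lines ran from -0.022 to 0.10 for hth between the discs and from -0.12 to 0.044 for tsh between eye-antennal discs and brains. Between strains, DESeq2 called hth (0.27), and leaving out each tissue gave -0.035 to 0.11 for tio. Among pairs, tsh minus tio between eye-antennal discs and brains ran from -0.13 to 0.082, and hth minus tsh between wing discs and brains from -0.31 to -0.21, with a call without D. yakuba (adjusted p = 0.0352).

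Sets of lines taken from an earlier analysis of these files were left out in turn. The first was the 4 lines whose wing libraries held eye transcripts, D. simulans, D. yakuba, D. ananassae and D. virilis. The second was the 5 in which a disc library held brain transcripts, RAL-208, Canton S, D. simulans, D. mojavensis and D. virilis. The marker sums did not fully follow these sets. D. ananassae had the highest neuronal sum among wing libraries, 56.7, but is not in the second set. Eye disc markers summed to 12.6 in the D. virilis wing library and to 12.1 in that of Canton S, which was kept. Without either set, the 9 tissue results on members kept their side of the threshold. The tio difference between the discs was -0.51 and -0.61 there (limma adjusted p = 0.00643 and 0.0185). Without those 5 lines 753 genes were called between the discs. The split of calls between the discs was 1154 higher and 479 lower, against 1043 and 773 with medians set equal and 1051 and 904 with TMM factors. Robust variance moderation, chosen after seeing the data, changed no call on a member. EdgeR on recovered reads called 1243, 3035 and 3449 of 5540 genes. Interaction calls over left-out lines were 0 to 1, 2 to 9 and 5 to 73, with 73 without D. ananassae. They were 5 without a filter between the discs and 8 with a pseudocount of 4 between eye-antennal discs and brains. Strain calls were 43 without a filter, 0 without the tissue block (656 at an unadjusted p under 0.05) and 0 to 333 without 1 tissue, with 333 without wing libraries. For tio, with 149 to 1085 reads in disc libraries, differences within a line smaller than its counting interval cannot be told from counting error.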
